A study of Homo sapiens with 2 samples.

Results

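The genes described are 9 regulators of the embryonic primitive streak, mesendoderm and endoderm: EOMES, T, MIXL1, LHX1, CER1, SOX17, FOXA2, GATA6 and GATA5. They were chosen by symbol, with their values known, from the 425 rows of the authors' deposited table, and all 9 were found there. RNA came from HES2, an established human embryonic stem cell line, in 2 cultures with 1 library each. The control expressed PB and the other culture expressed PB-Tfcp2l1ΔCP2, whose column in the table is named for Tfcp2l1 and CP2 without the deletion sign. The labels spell out neither PB nor the species, promoter or clone number of the insert, whose name points to a Tfcp2l1 protein lacking its CP2 part. The TFCP2L1 protein binds DNA and belongs to the naive pluripotency network. For 2 passages both cultures had a 10% KSR medium with FGF2 (10 ng/ml) and the same amount of Activin A, an agonist of the Nodal receptors. With no replicate culture no condition was tested, and every difference below compares these 2 libraries. Since the members were picked for their differences, those differences are a description only.

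The table gives 1 expression value per gene and library, normalized for gene length, with no unit named. It holds called genes only: each row is at least 2-fold apart, and the highest deposited FDR is 0.000984. A gene that is not listed may thus still differ by 2-fold or more. Library totals are not given, but if the deposited p-values come from the Audic-Claverie test of reads in 2 libraries, which no source used here names, they set the ratio at 1.02 (PB-Tfcp2l1ΔCP2 over PB) and give whole reads for 402 rows, all 9 members among them. Every read count, read fold and interval below rests on that formula; the values do not. Folds below are ratios of those reads divided by 1.02, with exact 95% binomial intervals that cover counting error only; the spread between cultures is unknown. In RNA from a whole culture, fewer expressing cells and less RNA per cell cannot be told apart. TFCP2L1 itself was not among the rows used here, so the labels could not be checked on it.

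At gastrulation, Nodal and WNT signals at the posterior epiblast switch on the T-box genes EOMES and T, and cells that pass through the streak become mesoderm or definitive endoderm. Nodal acts through SMAD2 and SMAD3, which reach many target genes with the partner FOXH1, while WNT acts through beta-catenin and TCF/LEF factors. EOMES and MIXL1 then lead toward SOX17 and FOXA2 in the endoderm, and secreted inhibitors such as CER1 limit the signals. Human embryonic stem cells are kept undifferentiated by FGF and Activin, and higher Activin or added WNT is used to drive them through the same steps.

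RefSeq promoter windows (GRCh38.p14) were matched for 5 of the 9 genes: CER1, EOMES, GATA6, MIXL1 and T, the last with 2 starts. Those of LHX1, SOX17, FOXA2 and GATA5 were not used here. The windows below are the 250 bases before the start of CER1, MIXL1 and the downstream start of T, shown because they hold the letters of a FOXH1 or TCF/LEF motif; capitals mark the motifs named after them.
CER1, chr9:14722734-14722983, minus strand: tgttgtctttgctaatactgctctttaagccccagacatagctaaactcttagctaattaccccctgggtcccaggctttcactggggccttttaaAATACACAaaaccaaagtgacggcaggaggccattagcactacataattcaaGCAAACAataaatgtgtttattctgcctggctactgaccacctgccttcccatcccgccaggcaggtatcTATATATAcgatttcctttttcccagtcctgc
MIXL1, chr1:226223414-226223663, plus strand: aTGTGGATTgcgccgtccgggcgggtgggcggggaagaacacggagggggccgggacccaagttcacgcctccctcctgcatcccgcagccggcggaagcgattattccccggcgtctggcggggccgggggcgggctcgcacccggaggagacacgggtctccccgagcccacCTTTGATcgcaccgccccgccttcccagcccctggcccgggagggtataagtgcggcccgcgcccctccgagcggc
T, chr6:166167852-166168101, minus strand: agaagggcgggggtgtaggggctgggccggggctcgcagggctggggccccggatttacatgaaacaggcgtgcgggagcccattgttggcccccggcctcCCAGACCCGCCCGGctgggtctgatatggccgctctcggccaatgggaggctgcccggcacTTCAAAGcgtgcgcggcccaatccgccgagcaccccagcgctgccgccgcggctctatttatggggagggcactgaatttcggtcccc

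All motifs were searched on both strands, and were chosen after the windows had been read. The FOXH1 motif (AATCCACA or AATACACA) matched in 2 of the 5 genes, CER1 as AATACACA at 154 to 147 bases before the start and MIXL1 as TGTGGATT at 249 to 242 bases before it. The same letters were in 1.37% of all 35116 windows of this length. A TCF/LEF motif (CTTTGAA or CTTTGAT) matched in MIXL1, as CTTTGAT at 76 to 70 bases, and in T, as TTCAAAG at 88 to 82 bases, against 5.94% of all windows. The other capitals are a FOXA motif in CER1 (GCAAACA, a match to TGTTTAC or TGTTTGC, which 6.09% of windows hold), a TATA motif in CER1 (TATAAA or TATATA, 12.8% of windows, here 2 overlapping matches) and, in T, a match to the pair of half-sites known for TFCP2L1 (CCAG followed after 6 bases by CCAG or CCGG, 5.95% of windows). TATA letters also stood in EOMES and in the upstream start of T. GATA letters (AGATAA or TGATAA), present in 14.6% of windows, the T-box letters AGGTGTG (3.84%), the octamer ATGCAAAT (1.63%) and the SMAD palindrome GTCTAGAC (0.182%) matched in none of the 6 member windows. The SMAD GC box GGCGCC, in 16.4% of all windows, matched only in GATA6 among the 6. A match in letters is a description and no evidence of binding.

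The members' windows also differed in base composition. CER1 had a GC content of 45.2%, at percentile 22.4 of all windows, with 3 CpG dinucleotides. MIXL1 was at the other end with 74.0% GC and 30 CpG. EOMES (62.0%), GATA6 (64.4%) and the 2 starts of T (69.6% downstream and 60.8% upstream) lay between them, above the median of 58.0% over all windows. CER1, the member with the highest value in the PB-Tfcp2l1ΔCP2 library, was the only one of the 5 genes with a window below that median.

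The 4 transcription factor genes of the streak were higher in the PB-Tfcp2l1ΔCP2 library. EOMES (Gene ID 8320), a T-box factor needed for definitive endoderm, had a value of 0.11 on 8 reads in the PB control and 3.06 on 256 reads in the other library, 31.3-fold by reads (15.6 to 73.2). T (Gene ID 6862, now TBXT), the brachyury gene that marks the streak and nascent mesoderm, had 0.05 on 3 reads against 0.93 on 53. Its fold of 17.3 is loosely fixed (5.60 to 86.4) because of the 3 control reads. MIXL1 (Gene ID 83881), a paired-type homeobox gene, was already expressed in the control, at 2.68 on 124 reads against 7.27 on 343, and had the smallest fold of the 8 higher members (2.70, 2.20 to 3.35). LHX1 (Gene ID 3975), a LIM homeobox gene of the streak and the head organizer, had 0.19 on 15 reads against 1.08 on 88, 5.74-fold (3.30 to 10.7).

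The interval of EOMES lay wholly above those of LHX1 and MIXL1, so these streak genes did not share 1 fold within counting error. The sum of the 4 values went from 3.03 to 12.3, and MIXL1 made up most of it in both libraries. Within a library, where no scaling between libraries enters, reads per length of MIXL1 over EOMES were 27.0 (13.3 to 63.9) for the control and 2.33 (1.98 to 2.75) for PB-Tfcp2l1ΔCP2. The ratio of EOMES to T was 1.84 (0.443 to 10.8) and 3.34 (2.48 to 4.58), intervals that overlap. The gap between EOMES and MIXL1 was thus smaller with PB-Tfcp2l1ΔCP2, while a shift against T could not be seen at this depth.

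**Figure D1:**
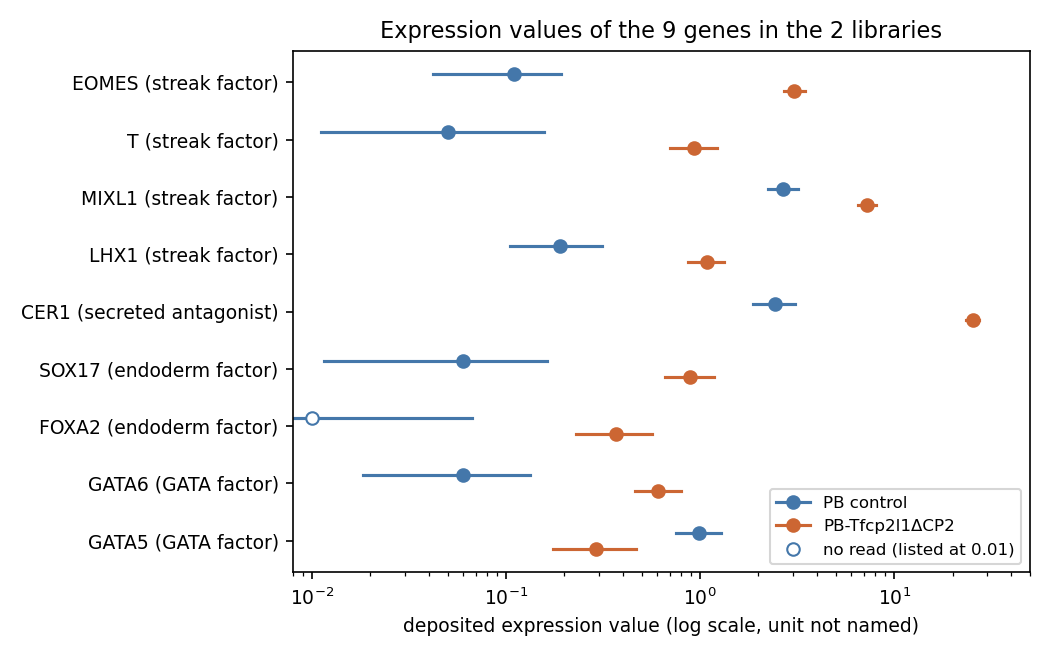
Deposited expression values of the 9 genes (log axis) in the PB control and the PB-Tfcp2l1ΔCP2 library, 1 library each; bars are exact 95% Poisson intervals of the reads, on the scale of the values, and the open point is a library with no read. Of the 9 genes 8 lie further right in the PB-Tfcp2l1ΔCP2 library, and GATA5 alone lies further left, at 0.29 against 0.99.

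CER1 (Gene ID 9350) encodes cerberus, a secreted protein that binds Nodal and BMP ligands, with WNT binding known from its frog counterpart, and is itself a target of Nodal signals. It had a value of 2.43 on 65 reads in the control and 25.4 on 696 reads in the other library, 10.5-fold (8.11 to 13.7). On the log2(value + 1) scale its difference of 2.95 was the highest of all 425 rows. In the control the ratio of CER1 to MIXL1 in reads per length was 0.880, with an interval that includes 1 (0.641 to 1.20). In the PB-Tfcp2l1ΔCP2 library CER1 was 3.41 times MIXL1 (2.99 to 3.89). Its share of the summed values of the 9 genes was 36.9% in the control and 63.7% with PB-Tfcp2l1ΔCP2.

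CER1 was not the only inhibitor of these ligands in the table. Of 25 secreted antagonists of Nodal, WNT and BMP, 2 were listed, both higher: CER1 and FST, the follistatin gene, whose product traps Activin. FST went from 2.25 to 4.66 on 96 and 201 reads, 2.05-fold (1.60 to 2.64), an interval wholly below that of CER1. Neither LEFTY gene, no DKK or SFRP gene, and none of NOG, CHRD or GREM1 was among the listed rows, and their values were not analysed here. Only 2.33% of all tests were listed, so nothing is read from their absence. CER1 is a member picked for its difference, which leaves FST as the only further gene.

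The endoderm factors were near the limit of detection in the control. SOX17 (Gene ID 64321), an HMG-box factor of definitive endoderm, had 0.06 on 3 reads against 0.89 on 49, 16.0-fold (5.15 to 80.1). FOXA2 (Gene ID 3170), a forkhead factor that opens chromatin in endoderm and the node, is listed at 0.01 in the control, which stands for no read, and at 0.37 on 21 reads in the PB-Tfcp2l1ΔCP2 library. With its control set to a floor of 3 counts, FOXA2 was 6.84-fold higher. The exact interval starts lower, at 5.09, and has no upper limit. Both genes were higher with PB-Tfcp2l1ΔCP2, yet stayed under a value of 1. In the PB-Tfcp2l1ΔCP2 library SOX17 exceeded FOXA2 per length by 2.40 times (1.41 to 4.21), while the interval of its ratio to GATA6 included 1 (1.43, 0.956 to 2.15).

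The GATA paralogues went in opposite directions. Both encode zinc finger proteins of the subgroup GATA4, GATA5 and GATA6, which act in endoderm and heart. GATA6 (Gene ID 2627), an early factor of primitive and definitive endoderm, had 0.06 on 5 reads against 0.61 on 55, 10.8-fold higher (4.34 to 34.4). GATA5 (Gene ID 140628) had 0.99 on 59 reads against 0.29 on 18, 3.35-fold lower (1.95 to 6.04). Per length, GATA5 exceeded GATA6 by 17.2 times in the control (6.97 to 55.0). In the PB-Tfcp2l1ΔCP2 library GATA6 exceeded GATA5 by 2.09 times (1.21 to 3.79). The order of the paralogues thus differed between the libraries, while the sum of their reads was 64 and 73, a fold of 1.12 (0.786 to 1.59). GATA6 overlaps genes on the other strand in GENCODE v29, among them GATA6-AS1, and whether reads were counted by strand is not given in the sources used here; without strand, reads of such a pair cannot be told apart. LHX1 also overlaps a gene on the other strand, AC243773.1, and FOXA2 one on its own strand, AL121722.1. No gene overlaps GATA5 or the other 5 members there. Of the other 6 genes in the GATA family list (GATA1 to GATA4 and the cofactors ZFPM1 and ZFPM2) none was listed. Only 2.33% of all tests were, so nothing is read from this.

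**Figure D2:**
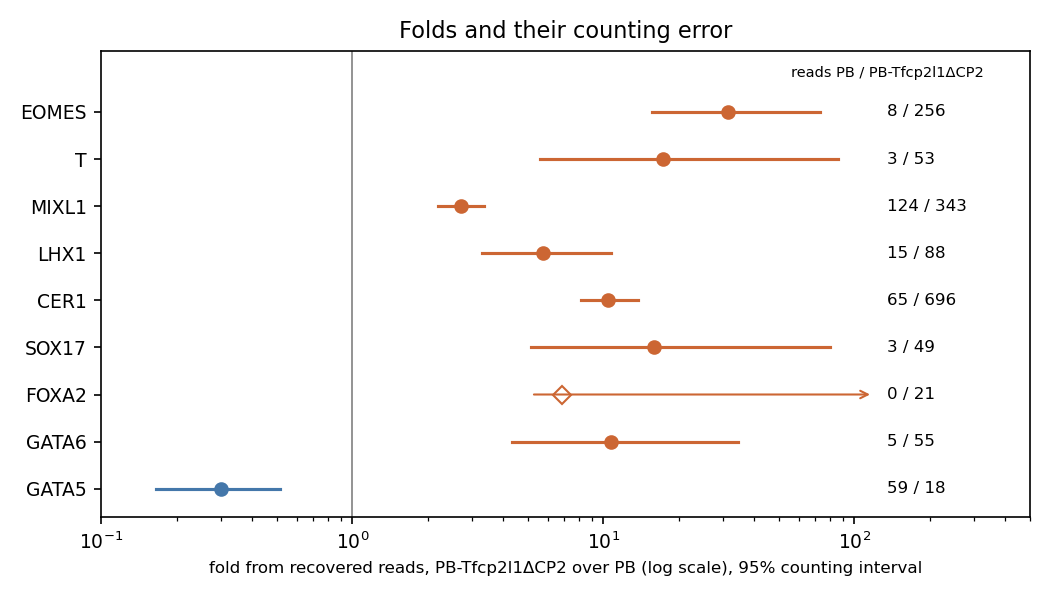
Folds of the 9 genes from recovered reads, PB-Tfcp2l1ΔCP2 over PB (log axis), with exact 95% counting intervals and the reads of both libraries at the right. The open diamond is the fold of FOXA2 with its control set to 3 counts, and the vertical line is no difference. The intervals of EOMES (15.6 to 73.2) and MIXL1 (2.20 to 3.35) do not meet, and that of GATA5 lies wholly below 1.

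By level, the members changed places between the libraries. In the control MIXL1 and CER1 came first with overlapping intervals, GATA5 was the third and apart from its neighbours, and LHX1, EOMES, GATA6, SOX17, T and FOXA2 followed, each overlapping the next. In the PB-Tfcp2l1ΔCP2 library CER1, MIXL1, EOMES and LHX1 had intervals apart from each other, in that order. T, SOX17, GATA6, FOXA2 and GATA5 followed LHX1 with each interval overlapping the next. In the control 7 of the 9 genes had a value under 1, and in the other library 5. GATA5 went from 15.0% of the summed values to 0.726%, and EOMES from 1.67% to 7.66%. These shares also move with the sum itself, which was 6.58 and 39.9 (PB first). The value of GATA5 was 0.99 and 0.29.

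Over the whole table, 47.3% of the rows were higher in the PB-Tfcp2l1ΔCP2 library and 52.7% lower; of the members 8 were higher and 1 lower, a split that their choice fixes. Of the 18250 tests behind the FDR, the listed higher rows were 1.10%, the listed lower rows 1.23% and both together 2.33%. The median log2 value ratio was 3.39 over the 9 members (3.35 with the FOXA2 control set to 3 counts), -1.03 over all rows and 1.62 over the 201 higher rows. The log2(value + 1) scale makes folds of low genes smaller. On it 3 members (CER1, EOMES and MIXL1) were at least 2-fold higher and none at least 2-fold lower, where 11.5% of all rows were higher and 11.5% lower. Of the 425 rows, ordered on that scale from the highest difference down, CER1 was at place 1, EOMES at 9, MIXL1 at 31, T at 71, SOX17 at 78, LHX1 at 85, GATA6 at 124, FOXA2 at 160 and GATA5 at 276. The median on that scale was 0.83 over the members and -0.36 over all rows, and GATA5 was at -0.63. So 5 of the 8 higher members have high ratios on values that stayed near or under 1.

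**Figure D3:**
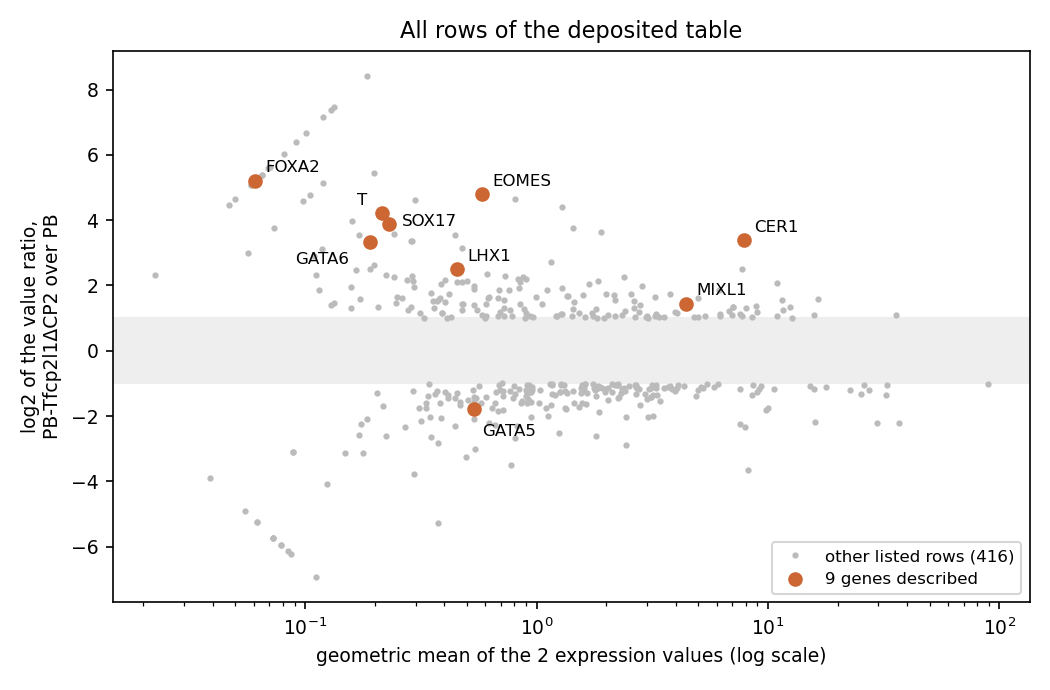
All 425 rows of the table, with the geometric mean of both values (log axis) against the log2 value ratio, PB-Tfcp2l1ΔCP2 over PB; the grey band, under 2-fold, holds no row by the table's own selection. CER1 and MIXL1 are the members at high values, the other higher members lie at the left among rows of low value, and GATA5 is the only member below the band.

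Genes of these steps, of the members' families and of other cell types were read from 15 lists. The table held 21 of their 224 genes, with 15 higher and 6 lower. Every member is in that total, so 8 of the higher genes and GATA5 among the lower were picked for their differences. Outside the members, FGF17, SP5, NKX1-2, FOXQ1, FST, MSX2 and TFAP2A were higher, while TBX1, ZFP42, NCAM1, GABRP and COL1A1 were lower. The streak and mesendoderm list of 21 genes had 9 in the table, each of them higher. Of all tests 2.33% were listed, and 47.3% of the listed rows were higher. The count is a description only: 6 of the 9 are members, picked for their differences, and the list was drawn up with earlier results known. The other 3 were FGF17, SP5 and NKX1-2. FGF17, which encodes a secreted FGF of the streak and midbrain border, had 0.16 on 5 reads against 4.04 on 128, 25.0-fold (10.5 to 78.4). SP5, a zinc finger gene known as a direct WNT target, had 0.07 on 3 reads against 0.83 on 38, 12.4-fold (3.93 to 62.7). NKX1-2, a homeobox gene of the caudal epiblast, had 1.60 on 34 reads against 3.41 on 74, 2.13-fold (1.40 to 3.29). FGF17 and SP5 thus had intervals that overlap that of EOMES, and NKX1-2 did not.

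Of 21 endoderm genes 5 were listed, 4 higher and GATA5 lower. The only one outside the members was FOXQ1, a forkhead gene, with 0.02 on 1 read against 0.55 on 30 (29.3-fold, 4.88 to 1197). The mesoderm list of 22 genes (MESP1, TBX6, HAND1 and KDR among them) had none, which is near the 2.33% of all tests that were listed, so nothing is read from it. T and SP5 were the 2 listed genes of 27 in the WNT list, and CER1 and FST the 2 of 22 in the Nodal/Activin list, in which no ligand, receptor or SMAD gene was listed. At the same share of 2.33%, nothing is read from the unlisted genes of these lists. Of 19 BMP genes only the homeobox gene MSX2 was listed (0.75 on 38 reads against 2.42 on 126, 3.24-fold, 2.24 to 4.79).

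Within the members' own gene families the listed genes did not all go one way. Among 17 T-box genes EOMES and T were higher, and TBX1, a gene of pharyngeal mesoderm and endoderm, was lower at 3.22 on 150 reads against 1.55 on 74 (2.07-fold lower, 1.56 to 2.78). Of 6 FOXA and SOXF genes only FOXA2 and SOX17 were listed, and of 21 LIM and Mix or Goosecoid-type homeobox genes only LHX1 and MIXL1. These are all members, and only 2.33% of all tests were listed, so nothing is read from the unlisted genes. By the molecular function terms in the authors' deposited table, 30 rows carried a sequence-specific DNA binding or transcription factor term, 7 of them members. The remaining 23 were divided into 11 higher and 12 lower, close to the 47.3% of all rows that were higher. The terms are incomplete: MIXL1, SP5 and NKX1-2, all higher, and the forkhead gene FOXO6, lower, carried none of them. EOMES, LHX1 and SOX17 were the 3 rows with the term for formation of the primary germ layers.

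**Figure D4:**
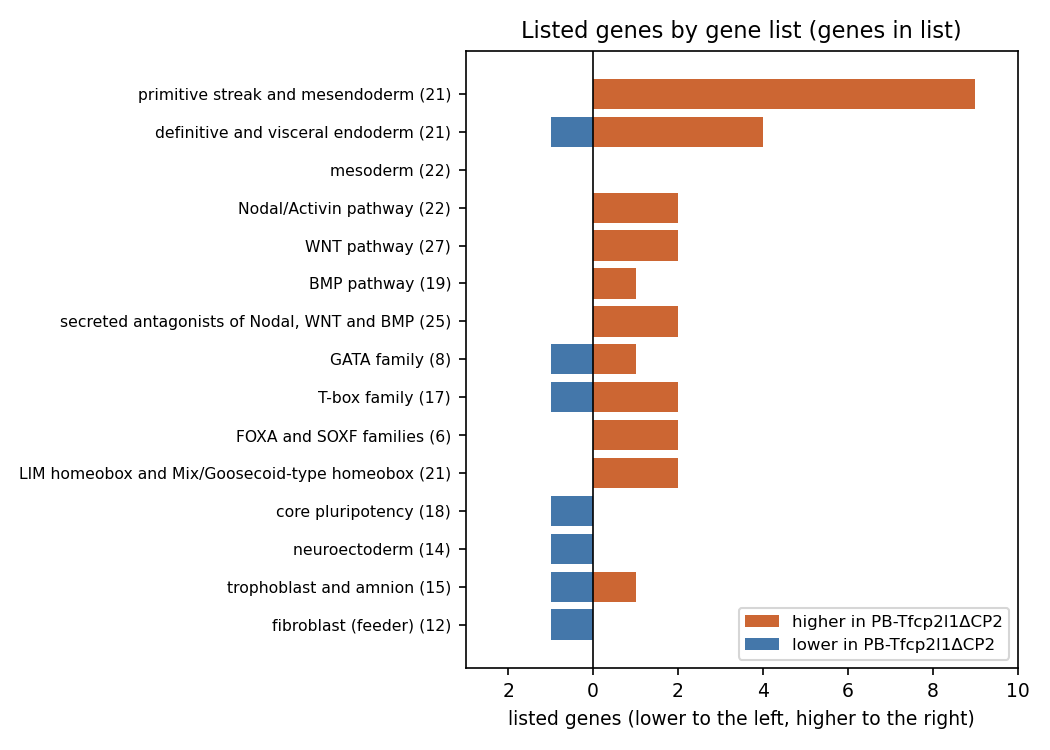
Number of listed genes in each of 15 gene lists (list size in brackets), higher in the PB-Tfcp2l1ΔCP2 library to the right and lower to the left; genes can be in several lists. The streak list has 9 listed genes, all to the right, of which 3 are not members. The members were picked for their differences. The mesoderm list has none (2.33% of all tests were listed), and the GATA and T-box families have bars on both sides.

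A few single markers of other cell types were listed too, and their part in the results was not tested. Of all tests 2.33% were listed, and with so few genes per list nothing is read from these counts. Of 18 core pluripotency genes 1 was listed: ZFP42, also called REX1, was lower at 5.08 on 312 reads against 1.99 on 126 (2.53-fold lower, 2.05 to 3.14), and POU5F1, SOX2 and NANOG were not among the listed rows. Of 12 fibroblast markers, which feeder cells would carry, COL1A1 was the only one listed, lower at 41.6 against 18.0 (2.31-fold lower, 2.21 to 2.42). From the neuroectoderm list of 14 genes NCAM1 was listed, lower at 2.32 against 1.07. Of 15 trophoblast and amnion genes TFAP2A was higher (0.11 against 0.53) and GABRP, a GABA receptor subunit gene, lower (1.04 against 0.43).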

How the data were processed

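Total RNA of 2 HES2 cultures was sequenced on the BGISEQ-500, per the labels' protocols; per the submitters' processing notes, Bowtie 0.12.2 and hg19 are named without a described role. For the gene counter, the annotation and the strand setting nothing is given in the sources used here. The authors deposited expression values, a signal without a named unit, rounded to 2 decimals and never below 0.01. The authors' deposited log2 fold change is the log2 ratio of both values. The authors' deposited p-values and FDR behave as a test of reads between 2 libraries over 18250 tests.

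The value column for PB-Tfcp2l1ΔCP2 is named without the delta; no other column names Tfcp2l1, and it was assigned on that ground. Each deposited p-value was inverted (2-sided Audic-Claverie formula, assumed) to the pair of whole reads that gives it to a relative 5e-06. Of 31 rows with no read in 1 library, 30 were used to find the ratio of totals and all 30 gave the same one, 1.02; the row with the smallest p was left out of that step. Within 14 to 35 reads per unit of value and kilobase, each of the 9 members had a single pair. If the upper tail of that test counts the observed read, each higher member has 1 read more in the PB-Tfcp2l1ΔCP2 library; with 1 more, 35 higher rows of few reads had a median of 24.2 reads per unit and kilobase, as used 23.4, and 88 lower rows, which this does not touch, 23.7. Python 3.11.15 and scipy 1.17.1 were used. Intervals are 95% and treat reads as independent.

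The members, the gene lists and the rule for named genes (the members, all listed genes of the lists, and the 2 nearest log2 ratios to EOMES, CER1 and GATA5) were chosen with earlier results of these data known. RefSeq promoter windows (GRCh38.p14) were matched by Gene ID. Alternatives were other pseudocounts, a filter, a scaling, a higher fold and recovered reads.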

Additional observations from a re-analysis of the deposited data

How the results depend on the processing

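No paired analysis was possible because there was a single library per condition, and for the same reason no library could be left out. All 9 members kept their direction with the other pseudocounts, with none, with median-of-ratios scaling and by recovered reads (8 higher). A pseudocount cannot reverse a direction, and read pairs were kept only where their ratio fitted that of the values. Only the scaling could have changed a direction, and only that of GATA5, since the scaling shifts every log2 ratio up. A filter at a value of 1 in either library keeps only 4 members (CER1, EOMES, MIXL1 and LHX1, all higher) and 291 of the 425 rows. It leaves 3 members at least 2-fold higher (49 of those 291 rows) and drops GATA5. How many were at least 2-fold apart moved with the scale, as it did for all rows. On log2(value + 1) 3 members were higher and 0 lower. With a pseudocount of 0.5 there were 6 higher (85 of all rows), with one of 5 there was 1 (8 of all rows), and at 4-fold 1 (7 of all rows). With no pseudocount 8 were higher and 1 lower (201 and 224 of all 425 rows, fixed by the table's selection), and by recovered reads also 8 and 1 (188 and 207 of 402 rows). Median-of-ratios scaling shifts every log2 ratio up by 1.03, since no listed gene lies within 2-fold, and gave 6 higher (124 of all rows); GATA5 was then at -0.26. The interval of GATA5 at 99% was 1.68 to 7.30-fold lower. Depth limits T, SOX17, GATA6 and FOXA2 most, which rest on 0 to 5 control reads.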

Other observations

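The genes flanking the members were looked up in GENCODE v29 by name, and those listed are given here because they were noticed in the data. Of the 18 coding genes next to the 9 members, 2 were listed, where 2.33% of all tests were. FREM1, a basement membrane protein gene next to CER1, was higher like CER1, at 0.23 on 54 reads against 0.98 on 236 (4.27-fold, 95% counting interval 3.17 to 5.85). RBBP8NL, next to GATA5, went the opposite way to GATA5, with 0 and 26 reads (PB first). It was 8.47-fold higher with its control set to the floor of 3 counts, and the exact interval starts at 6.41.

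By log2 value ratio over the 2 libraries, the rows nearest to EOMES (4.80) were FOXQ1 (4.78) and FGF17 (4.66). Nearest to CER1 (3.39) were GLIPR1 (3.37) and PLCXD2 (3.35). Nearest to GATA5 (-1.77) were PNMA5 (-1.76) and the forkhead gene FOXO6 (-1.75). With 2 libraries such a likeness is only a like ratio.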
